A study of Mus musculus with 8 samples.

Results

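The transcripts described here are 7 genes of the Schwann cell and its myelin, Pmp22, Mbp, Prx, Mag, S100b, Sox10 and Egr2, picked by symbol from the 22609 gene symbols of the count tables, and all 7 passed the filter on low counts, as did 14790 genes in total. They were read in bulk paw tissue from 4 male and 4 female C57BL/6J mice, an inbred mouse strain, with 1 RNA sequencing library per sample. Both sexes had the same treatment label, 12 days of prolactin (PRL), the pituitary hormone of lactation, at 0.1 µg. The labels' protocol puts the injections into the sole of the paw once daily, and it also lists PBS and single-injection arms that were not analysed here. There is thus no untreated background, and the labels carry no age, genotype beyond the strain, or dissection detail. Each library held 16753528 to 24993744 reads assigned to genes, and the 7 genes took 0.033 to 0.0664% of them.

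Schwann cells are the glia of peripheral nerve. Those around large axons wrap a myelin sheath of compacted membrane, and those around thin pain and temperature fibres hold bundles of axons without myelin. Pmp22 and Mbp encode structural proteins of compact myelin, Prx encodes periaxin, a scaffold of the sheath's outer surface, and Mag encodes an adhesion protein of the membrane that faces the axon. SOX10 is the transcription factor of the Schwann lineage, and it acts with EGR2, the factor that drives the myelin genes. S100b encodes a calcium-binding protein long used as a Schwann marker. Several of these genes are also used elsewhere in skin: Sox10 in pigment cells and sweat glands, S100b in fat cells and gland epithelium, Pmp22 in fibroblasts, and Egr2 as an early response gene.

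The promoters are shown for the members that turned out to share a pattern over the libraries. RefSeq windows from 250 bases before to 50 bases after a transcript start (build GRCm38.p6, not the mm9 of the counts) were at hand for 5 of the 7 members, in 14 entries. The entries printed are the Prx window, the Mag window listed first and the most upstream of the Pmp22 windows, written 5′ to 3′ in the direction of the gene. Each was searched on both strands for the SOX core ACAAAG and the EGR core GTGGGCG, and capitals mark a match.
Prx, chr7:27499074-27499373, plus strand: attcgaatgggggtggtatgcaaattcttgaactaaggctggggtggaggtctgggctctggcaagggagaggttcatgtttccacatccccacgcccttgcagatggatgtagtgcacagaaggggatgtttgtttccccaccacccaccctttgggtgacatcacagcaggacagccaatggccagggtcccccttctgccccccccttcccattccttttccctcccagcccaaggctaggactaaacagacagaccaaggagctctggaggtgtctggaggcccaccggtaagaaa
Mag, chr7:30914814-30915113, minus strand: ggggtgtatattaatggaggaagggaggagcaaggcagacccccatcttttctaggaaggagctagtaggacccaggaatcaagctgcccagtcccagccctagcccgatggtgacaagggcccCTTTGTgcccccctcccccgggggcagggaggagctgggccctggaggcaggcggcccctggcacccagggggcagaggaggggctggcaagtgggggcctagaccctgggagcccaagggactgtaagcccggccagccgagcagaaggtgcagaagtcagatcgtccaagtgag
Pmp22, chr11:63128732-63129031, plus strand: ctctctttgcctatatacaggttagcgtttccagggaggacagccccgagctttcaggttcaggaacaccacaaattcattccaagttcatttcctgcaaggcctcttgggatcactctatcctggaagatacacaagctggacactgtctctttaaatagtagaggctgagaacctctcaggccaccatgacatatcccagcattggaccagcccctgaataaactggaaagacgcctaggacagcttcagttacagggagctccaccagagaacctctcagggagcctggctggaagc

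Mag held a match to the SOX core on the opposite strand in this window, and also in the overlapping window of a neighbouring start, and its other window held neither motif. The Prx window and the 4 Pmp22 windows held neither motif. Of all 32851 windows in the table, 18.7% held the SOX core and 7.97% the EGR core. Among the members' other windows, 1 of the 5 of Egr2 held the EGR core, and the S100b window held neither. A match is a run of letters, not a binding site, and nothing follows from its absence in so short a window.

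The label of the group was checked on other genes of peripheral myelin. Drp2, which encodes a partner of periaxin in the Schwann cell membrane, had 303 to 1025 counts per library, Cnp, a myelin enzyme, had 367 to 917, and Cdh19, a cadherin of the Schwann lineage, had 137 to 466. Genes that mark central rather than peripheral myelin, chosen after the counts were seen, were close to 0: over all 8 libraries Mog summed to 13 counts, Opalin to 1, and Mobp and Ermn to 0. Schwann transcripts were thus measured in every library, in a tissue whose counts came mostly from other cells. The 11 keratinocyte genes tested summed to 65500 to 104000 CPM (read counts put on a common library scale with TMM factors), and the 7 members to 335 to 640 CPM. CPM are not divided by transcript length, so levels are compared between libraries and not between genes.

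Levels of the 4 myelin structure members varied widely within each sex, and the same libraries were high for all 4. Pmp22 stood at 162, 286, 273 and 155 CPM in males 1 to 4 and at 280, 160, 155 and 317 CPM in females 1 to 4. Males 2 and 3 and females 1 and 4 were high, and the 4 other libraries lay between 155 and 162 CPM. Mbp stood at 80.9, 201, 185 and 86 CPM in males 1 to 4 and at 195, 117, 105 and 179 CPM in females 1 to 4. Its 4 high libraries were the same, with none of the others above 117 CPM.

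Prx, the periaxin gene, had a wider range than either. It stood at 21.3, 65.9, 62.7 and 21.1 CPM in males 1 to 4, and at 61.4, 31.5, 24.2 and 58.2 CPM in females 1 to 4. Again males 2 and 3 and females 1 and 4 were the high libraries. Mag was the least deeply counted member, with 32 to 119 counts per library. It stood at 1.94, 3.53, 5.02 and 2.01 CPM in males 1 to 4 and at 3.48, 1.48, 1.59 and 4.59 CPM in females 1 to 4. The 32 counts of female 2 carry a counting interval of 21.9 to 45.2 (95%, Poisson, which covers counting error only), and the 119 counts of female 4 one of 98.6 to 142. The same 4 libraries were highest for Mag, although their order within the 4 differed from that of Prx.

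The range from the lowest to the highest library was 2.04-fold for Pmp22, 2.49-fold for Mbp, 3.12-fold for Prx and 3.39-fold for Mag, where the median tested gene had 1.58-fold. Within a sex the coefficient of biological variation was 0.481 for Prx and 0.321 for Pmp22, against 0.0338 and 0.0148 from counting alone and a median of 0.195 over all genes. In bulk tissue, fewer Schwann cells and less RNA per Schwann cell cannot be told apart.

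The other 3 members did not follow this pattern. S100b stood at 29.7, 19.9, 29.4 and 43.1 CPM in males 1 to 4 and at 26, 19.7, 36.1 and 38.5 CPM in females 1 to 4. It was highest in male 4, the library lowest for Prx, and male 2, the library highest for Prx, had its second lowest value. Male 1 was nearly tied with male 4 for Prx, at 21.3 against 21.1 CPM, and ranked only 4 for S100b. Sox10 stood at 18.9, 16.8, 22.7 and 25.4 CPM in males 1 to 4 and at 19.1, 12.8, 17.6 and 21.7 CPM in females 1 to 4. It too was highest in male 4, and it was lowest in female 2. Egr2 was the steadiest member, at 20, 29.3, 24.4 and 22.9 CPM in males 1 to 4 and 21.3, 21.7, 25.3 and 21.1 CPM in females 1 to 4. Its range of 1.47-fold was below the 1.58-fold of the median gene, and male 2 was its highest library.

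**Figure D1:**
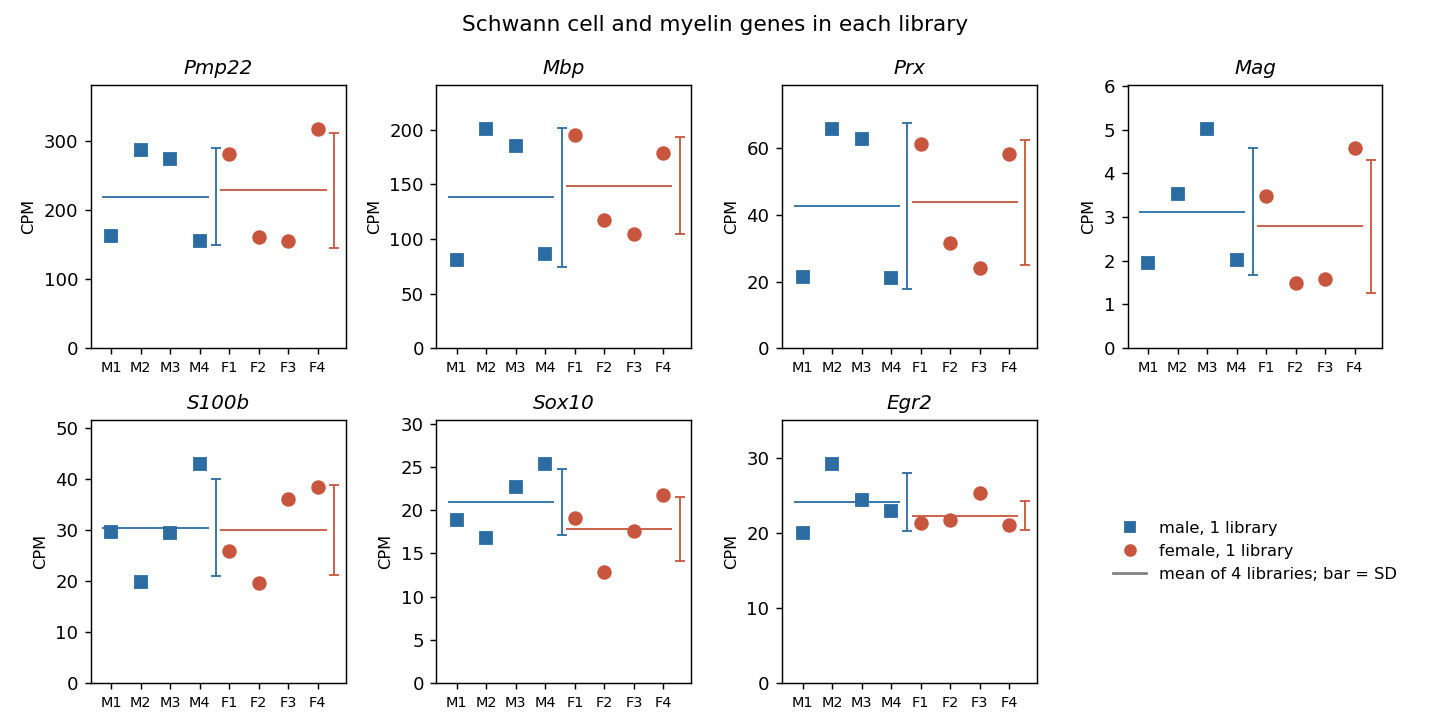
Level of the 7 genes (CPM, vertical axis from 0) in each library (M male, F female, replicates 1 to 4), with each sex's mean as a line and its SD as a bar. In the top row males 2 and 3 and females 1 and 4 are the 4 high libraries of every gene, from 273 to 317 CPM for Pmp22, while S100b and Sox10 in the bottom row are highest in male 4.

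The first comparison was between the sexes. None of the 7 members differed between females and males by edgeR's quasi-likelihood test, adjusted over all tested genes, where 14 genes (0.0947% of those tested) were called. Unadjusted, 0 of the 7 had a p under 0.05, and limma-voom and DESeq2 called 0 of them as well. The libraries of the sexes overlapped for every member, as they did for all but 4.73% of tested genes.

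Pmp22 averaged 228 ± 82.9 CPM over the females and 219 ± 69.8 over the males (SD, n = 4 per sex), which is a female over male log2 fold change of 0.06 (SE 0.31). Mbp averaged 149 ± 44.6 CPM over females and 138 ± 63.6 over males (log2 fold change 0.11, SE 0.36) and Prx at 43.8 ± 18.7 against 42.8 ± 24.9 CPM (0.04, SE 0.49). For these 3 the difference was below its SE. Mag stood at 2.78 ± 1.51 against 3.12 ± 1.46 CPM (-0.16, SE 0.46) and S100b at 30.1 ± 8.76 against 30.5 ± 9.54 CPM (-0.02, SE 0.27). Sox10 had the smallest p of the 7. Its mean was 17.8 ± 3.73 CPM over females against 20.9 ± 3.83 over males (-0.23, SE 0.19, edgeR adjusted p = 0.946). Egr2 stood at 22.3 ± 1.98 against 24.2 ± 3.89 CPM (-0.11, SE 0.13), and the edgeR adjusted p was 0.999 for each of the 6 other members.

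These tests leave wide intervals. The 95% interval of the female level over the male level ran from 0.756 to 1.13-fold for Egr2 and from 0.631 to 1.14-fold for Sox10. For Pmp22 it ran from 0.638 to 1.7-fold, for Prx from 0.467 to 2.25-fold and for Mag from 0.43 to 1.86-fold. Differences between the sexes within these bounds are not excluded by 4 libraries each. Leaving out any single library called no member, and it turned the sign of the difference for Pmp22, Mbp, Prx, Mag and S100b.

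**Figure D2:**
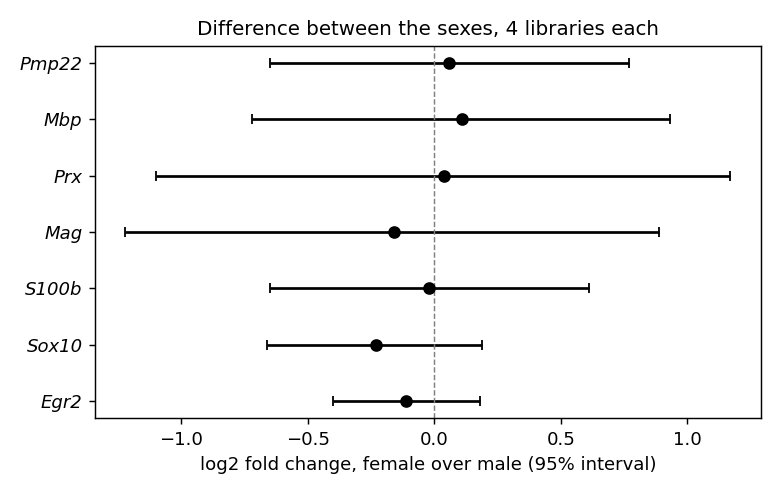
Log2 fold change of each member, female over male, as a point with its 95% interval from the edgeR fit (4 libraries per sex, dashed line at 0). Every interval spans 0, and those of Prx (-1.10 to 1.17) and Mag (-1.22 to 0.89) are the widest of the 7.

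The second comparison was between members over the 8 libraries. Pmp22, Mbp, Prx and Mag each put the libraries into 2 sets of 4 with a gap between them, 1.68-fold for Pmp22, 1.53-fold for Mbp, 1.84-fold for Prx and 1.7-fold for Mag. Such a gap, at least 0.4 of the log2 range with 3 or more libraries on each side, was found in 5.61% of tested genes. With the libraries in 2 sets, a correlation over all 8 restates the gap and 4 libraries are too few for another, so no correlation was tested for these genes. The pattern is given by rank instead: 4 of 7 members had males 2 and 3 and females 1 and 4 as their highest libraries. That same set was on top for 12.8% of all tested genes, so it is a common one in these libraries.

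Ratios between genes of 1 library do not depend on the library's scaling. Mbp was 2.95 to 4.34 times Prx in the 8 libraries, a range of 1.47-fold, while Prx itself ranged 3.12-fold. By the SD of the log2 ratio (0.21), Mbp ranked 10 of 14789 among the genes nearest to Prx. Pmp22 was 1.37 to 2 times Mbp (SD 0.2) and ranked 16 among those nearest to Mbp, while Mbp ranked 139 among those nearest to Pmp22. Mag was looser against Prx, with 10.5 to 21.3 units of Prx for each of Mag (SD 0.37). Against Pmp22 it had an SD of 0.28. Pmp22 ranked 15 among the genes nearest to Mag, and Mag 697 among those nearest to Pmp22.

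Against the same genes, the lineage and marker members varied widely. S100b was 0.302 to 2.04 of Prx, a range of 6.76-fold that is wider than the 3.12-fold of Prx itself. Sox10 was 0.255 to 1.2 of Prx, a range of 4.72-fold, and Prx was 0.921 to 2.88 times Egr2, a range of 3.13-fold. S100b and Sox10 kept closer to each other, at 1.18 to 2.05 (1.73-fold, SD of the log2 ratio 0.26). The first component of the 7 members' log2 CPM, centred but not scaled, held 79.4% of their variance and the next 16.7%. Genes with a wide spread weigh most in it. The SD of log2 CPM was 0.75 for Prx and 0.67 for Mag, against 0.30 for Sox10 and 0.18 for Egr2.

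Genes whose pattern was most like each member's were listed by Pearson r of log2 CPM over the 8 libraries among genes with a mean of at least 1 CPM, as a description. The 3 nearest to Mbp included Sfrp5, which encodes a secreted Wnt inhibitor, and Prx (r = 0.99 each). The 3 nearest to Prx included Mbp and Ptprn2 (0.99 each). Pmp22 was nearest to Meox2, Prrg1 and Eif4e3 (0.99 each), with Prx at rank 43 of 14097, and Mag to Cnrip1 (0.98), Peli2 and Vwa1 (0.97 each), with Pmp22 at rank 19. Thus Mbp and Prx were among each other's 3 nearest genes, and no member was among the 3 nearest of Pmp22 or Mag. The nearest genes were Greb1l, Sec14l1 and Plau for S100b (0.97 to 0.98), Ttc7, 3110045C21Rik and Uhmk1 for Sox10 (0.95 to 0.96), and Immp2l, Mrpl55 and Acot10 for Egr2 (0.94 to 0.95).

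**Figure D3:**
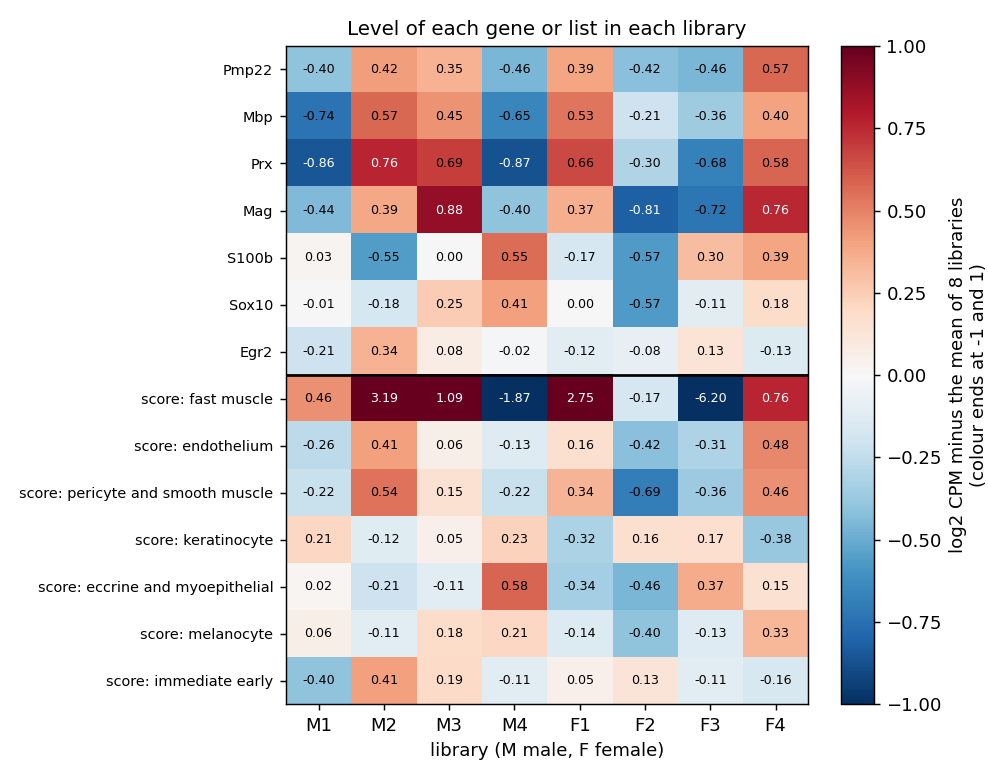
Log2 CPM minus the mean of the 8 libraries for the 7 members (above the line), and the same averaged over the genes of 7 marker lists (scores, below it), by library, with colours ending at -1 and 1. Pmp22, Mbp, Prx and Mag are above 0 in males 2 and 3 and females 1 and 4, and so are the fast muscle, endothelium, and pericyte and smooth muscle scores, where fast muscle runs from -6.20 to 3.19 and is also above 0 in male 1 (0.46).

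Other genes of the pathway were read from lists of markers. Of 17 other myelin structure and lipid genes, 13 (76.5%) had the same 4 highest libraries as Pmp22 (against the 12.8% of all genes), and 0 were called between the sexes (13 above 0 and 4 below, median log2 fold change 0.13, against 0.01 over all genes). The 13 included Cnp, Pmp2, a lipid-binding protein of myelin (0 called, range 8.73-fold), Gjb1, a gap junction protein of the sheath, and Drp2. Drp2 ranged 3.33-fold and Cldn19, a tight junction protein of the sheath, 3.51-fold. The 4 exceptions included Fa2h, a fatty acid hydroxylase that sebaceous glands also make, with means of 128 ± 14.1 CPM over females and 228 ± 44.2 over males (log2 fold change -0.83, SE 0.16, edgeR adjusted p = 0.179). All 4 males lay above all 4 females for Fa2h, yet it did not pass.

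Regulators of myelination were divided. Of 16 tested, 6 (37.5%) had the same 4 highest libraries, among them Dhh, the Schwann cell's hedgehog signal, Zeb2, a repressor that permits myelination, and Qk, an RNA-binding protein of myelin transcripts. A further 3 had the opposite 4 on top: Erbb2 and Erbb3, the neuregulin receptor subunits, which epithelia also make, and Nab1, a cofactor of EGR proteins. The share of all tested genes with that opposite set was not counted, so nothing is concluded from these 3. None was called between the sexes (8 above 0 and 8 below, median 0.07). Of 14 tested genes of non-myelinating and repair Schwann cells, 7 (50%) had the same 4 highest libraries, including Ngfr, the low-affinity neurotrophin receptor, Ncam1, an adhesion molecule, Scn7a, a sodium channel gene, and Cdh19. Ngfr ranged from 6.93 to 23.9 CPM and Cdh19 from 6.71 to 18 CPM. None of these 14 was called (9 above 0 and 5 below, median 0.10).

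Neurons keep their cell bodies, where most of their mRNA lies, outside the paw. Of 22 axon and node genes 11 passed the filter on low counts. The 11 that did not, among them the neurofilament genes Nefl and Nefm and the neuropeptide gene Calca, had at most 12 counts in any library. Among the 11 tested were Ank3, a scaffold of the node, at a mean of 103 CPM, and Tubb3, a neuronal tubulin, at 37.8 CPM. Neither had the 4 highest libraries of Pmp22, and bulk tissue does not show which cells made them. The same 4 highest libraries as Pmp22 were found for Prph and Nfasc, 18.2% of the 11 and near the 12.8% of all genes, and none was called between the sexes (3 above 0 and 8 below, median -0.10). Of 10 perineurium and endoneurium genes 2 (20%) shared the 4 libraries, Apod, a lipid carrier of endoneurial cells, and Osr2, 3 had the opposite 4 on top, Cldn1, Crabp2 and Slc2a1, and none was called (7 above 0 and 3 below, median 0.06). For the opposite 4, too, no share over all genes was at hand.

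Many markers of muscle and vessels were high in the same libraries as the myelin genes. The same 4 libraries were highest for 17 of 20 fast muscle genes, 9 of 12 endothelial genes and 7 of 12 pericyte and smooth muscle genes. They were highest for 2 of 12 fibroblast genes (16.7%), 3 of 12 macrophage genes (25%) and 0 of 12 adipocyte genes, against 12.8% of all genes. Of 11 keratinocyte genes 0 had them on top, where 8 had the opposite 4. How common the opposite set is among all genes was not counted. Apart from the central myelin genes Mobp and Ermn, no list gene was at 0 in every library. Summed fast muscle levels ran from 47.3 to 23400 CPM in females and from 1060 to 31400 CPM in males. Endothelial genes summed to 395 to 754 CPM in females and 431 to 706 CPM in males, and pericyte and smooth muscle genes to 694 to 1530 and 848 to 1890 CPM. The latter sums include Des, 1 of the 7, which ran from 6.71 to 815 CPM. Its 121-fold range was near the 127-fold of the fast muscle gene Eno3. Acta2, Myh11, Cnn1, Mylk and Notch3 of the same list had other sets on top. Keratinocyte genes summed to 65500 to 95200 CPM in females and 80600 to 104000 CPM in males. Their part in the level of the myelin genes was not tested.

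Within the 4 lower libraries the myelin members did not all keep the order of the muscle genes. Female 3 had the least muscle transcript (score -6.20) and male 1 a score of 0.46. Female 3 had more Mbp than male 1, at 105 against 80.9 CPM, and more Prx, at 24.2 against 21.3 CPM. Pmp22 and Mag had the other order, at 155 against 162 CPM and at 1.59 against 1.94 CPM. For Mag this was 36 against 39 counts, with overlapping counting intervals of 25.2 to 49.8 and 27.7 to 53.3. These orders of female 3 and male 1 compare 1 library with 1 other. Over the 4 lower libraries Pmp22 fell with the score, with male 4 and female 3 level at 155 CPM. Among the 4 higher libraries Mbp kept the order of the scores, 3.19 in male 2, 2.75 in female 1, 1.09 in male 3 and 0.76 in female 4. Pmp22, Prx and Mag did not keep it there. None of these orders was tested. With the fast muscle score removed by regression, a description, the SD of log2 Prx over the libraries fell from 0.75 to 0.53 and that of Pmp22 from 0.47 to 0.33. Pmp22, Mbp and Mag then shared another set of 4 highest libraries, male 3 and females 1, 3 and 4, and Prx did not share it. That fit leans heavily on female 3, whose score of -6.20 lay far below the next lowest, -1.87 in male 4. Before the regression, female 3 ranked 7 of the 8 libraries for Pmp22 and for Mag. When the genes that track muscle (436, with 0.544 to 8.94% of counts per library) were left out of the scaling, the 4 myelin members kept their 4 highest libraries. For Sox10, male 1 and female 1 were then level at 19.6 CPM.

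Of the 21 pairs of members, 3 were free of the gap and could be tested for correlation. S100b and Sox10 had r = 0.79 and rho = 0.71 over the 8 libraries (exact permutation p = 0.0173 and 0.0576, two-sided, adjusted over the 3 pairs 0.0519 and 0.173), so the pair did not pass. Without the 2 libraries farthest from the S100b median r was 0.50. Within the sexes, as deviations from each sex's mean, r was 0.86, and each sex alone has too few libraries for a value. Of all other genes, 1.06% had at least this r with Sox10. Egr2 had r = -0.28 with S100b and -0.09 with Sox10 (exact permutation p = 0.515 and 0.827), and r changed to 0.24 and -0.48 without the 2 farthest libraries.

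The same 3 members were set against 13 marker lists that lacked the gap, 39 relations in all, on the mean log2 CPM of each list. S100b was nearest to the eccrine and myoepithelial genes of the sweat gland, with r = 0.90 and rho = 0.95 (exact permutation p = 0.00382 and 0.00114, adjusted over the 39 relations 0.0745 and 0.0445). Without the 2 libraries farthest from the list's median r was 0.84, and it was 0.91 as deviations from each sex's mean. The rank correlation thus passed and the linear one did not. That adjustment covers only the 39 relations left by the gap rule, which was set after the data were seen. The plan was to adjust over all members and lists, and r and rho were adjusted apart, so the pass depends on this choice. Male 4 and females 3 and 4 and male 1 were the 4 highest libraries of S100b and of 5 of the 10 tested genes of that list, against 1.26% of all genes. The last of these places was nearly tied for S100b, at 29.7 CPM in male 1 against 29.4 CPM in male 3. The shared set thus rests on a small difference.

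These 5 were Krt8 and Krt19, keratins of simple epithelium, Foxa1 and Foxi1, transcription factors of the gland, and Slc12a2, its chloride cotransporter. The other tested genes of the list, Aqp5, Barx2, Krt18, Kcnn4 and Actg2, had other sets on top. Aqp5 stood at 256 CPM in female 2, the lowest library of S100b. Slc12a2 stood at 314, 223, 261 and 433 CPM in males 1 to 4 and at 245, 266, 399 and 311 CPM in females 1 to 4. Krt8 stood at 12.9, 7.7, 9.49 and 19.4 CPM in males and at 8.25, 7.85, 18.2 and 14.1 CPM in females. Male 4 was the highest library of both, as of S100b. The list summed to 509 to 824 CPM in females and 547 to 913 CPM in males, and its members Bhlha15 and Cftr had at most 10 counts per library. The part of gland tissue in the S100b level was not tested.

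Sox10 was nearest to the melanocyte genes, with r = 0.90 and rho = 0.76 (exact permutation p = 0.00372 and 0.0368, adjusted over the 39 relations 0.0745 and 0.478), so this relation did not pass. It had r = 0.89 without the 2 farthest libraries and 0.89 as deviations from the sex means. The list rested on 7 of 12 genes, which summed to 66.2 to 147 CPM in females and 85 to 132 CPM in males. Most of that came from Kit and Ednrb, receptors that other skin cells also make. Mlana had 3 to 8 counts per library, and the pigment enzyme genes Tyr, at 4 to 16 counts, and Dct, at 39 to 117 counts, were also low. The 4 highest libraries of Sox10, males 3 and 4 and females 1 and 4, were shared by 0 of these 7 genes and by 2.28% of all genes. Female 1, at 19.1 CPM, was nearly tied with male 1, at 18.9 CPM, for the last of these places. The melanocyte score and Ednrb were highest in males 1, 3 and 4 and female 4, so the count of 0 rests on that small difference. With the sweat gland list Sox10 had r = 0.66 (exact permutation p = 0.0726, adjusted 0.439). S100b had r = 0.75 and rho = 0.76 with the melanocyte list (exact permutation p = 0.0351 and 0.0368, adjusted 0.274 and 0.478). The melanocyte relation was thus not particular to Sox10.

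Egr2 had its largest r above 0 with the immediate early genes, which rise within minutes of a stimulus (r = 0.74, rho = 0.69, exact permutation p = 0.0347 and 0.0694, adjusted 0.274 and 0.540). Without the 2 libraries farthest from the list's median r was 0.07, so the relation rested on those libraries. It also had r = -0.78 with the T cell genes (exact permutation p = 0.0241, adjusted 0.274). Its 4 highest libraries, males 2 to 4 and female 3, were shared by 1 of the 13 tested immediate early genes, its paralog Egr3, and by 0.588% of all genes. Egr3 stood at 42.9, 48.4, 54.4 and 49.1 CPM in males 1 to 4 and at 42.5, 39.2, 48.9 and 30.6 CPM in females 1 to 4. None of the 39 relations of these 3 members passed by r after adjustment, and 1 passed by rho.

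**Figure D4:**
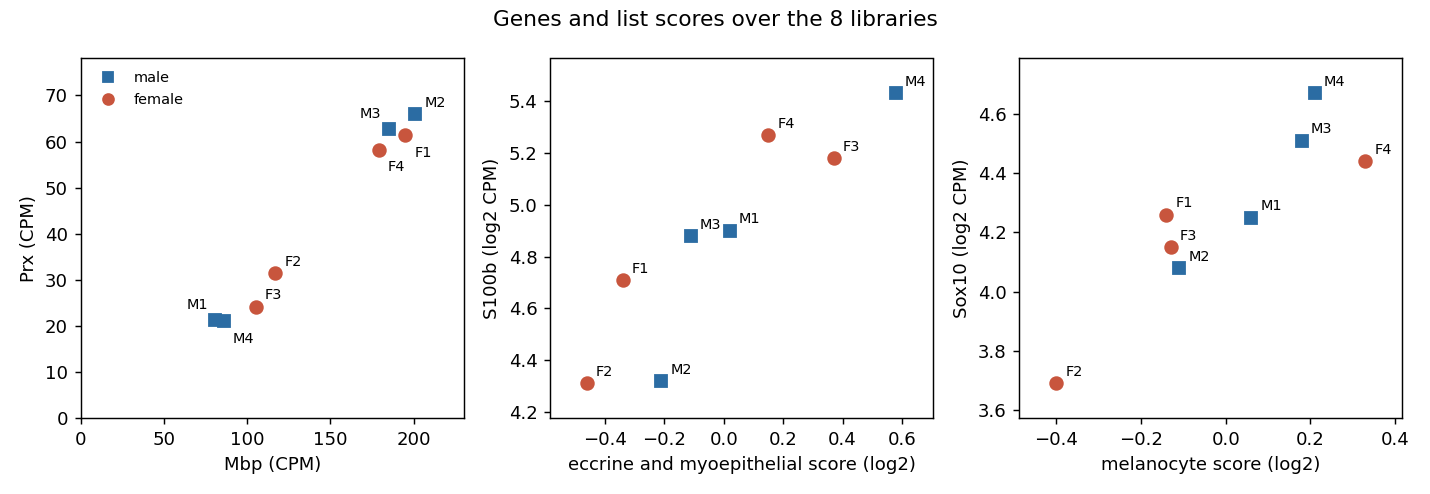
Left, Prx against Mbp (CPM), with points of 8 libraries from 21.1 CPM of Prx in male 4 to 65.9 CPM in male 2. Middle and right, log2 CPM of S100b against the mean of the eccrine and myoepithelial genes, and of Sox10 against that of the melanocyte genes (squares male, circles female); male 4 has the highest S100b and the highest gland score, and female 2 the lowest of all 4 measures.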

How the data were processed

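Paw RNA was sequenced as 8 libraries, 4 per sex. The labels' protocols give about 500 ng RNA, a stranded poly(A) kit and single-end 50 bp reads, and the submitters' processing notes name bcl2fastq, TopHat2, HTSeq and mm9. Tool versions, annotation and strandedness during counting: not given in the sources used here. Raw read counts were deposited per gene symbol, 16753528 to 24993744 per library. Summary lines that name no gene stayed out; reads in no feature were 18 to 21.1%. A symbol's count does not separate its transcripts. Pairs of libraries of a sex differed by 13.2 times sampling noise or more (chi-square per degree of freedom), so each counted as a replicate; p-values measure the spread between these libraries.

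Female was compared with male in edgeR 4.0.16 (R 4.3.3; filterByExpr, TMM, robust quasi-likelihood, sex as sole term) over all 14790 tested genes, with Benjamini-Hochberg adjustment and calls under 0.05. Standard errors are the absolute log2 fold change divided by the square root of F. Log2 CPM used a prior count of 2. Correlations have exact two-sided permutation p. Members and lists were chosen with earlier results of these data known. Named were the members, up to 4 most abundant genes of a list, nearest genes by r, and others chosen after their values were seen. The gap rule and the central myelin genes were set after seeing the data, and the planned correlation over all 21 pairs was dropped for that rule. The planned adjustment over all members and lists was narrowed to 39 relations for the same reason. Alternatives were other scalings, filters, tests (DESeq2 1.42.0, limma-voom 3.58.1), a replicate block, a muscle covariate and left-out libraries. The scripts were tested on simulated data. Some genes of the lists are counted but not reported here by name.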

Additional observations from a re-analysis of the deposited data

Results flagged for a closer look

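Among 46 sets of 4 libraries of a sex (7 members and 16 list scores), 2 contained 1 library lying far from the remaining 3 relative to their spread; about 1 in 20 would by chance. Egr2 stood at 4.67 log2 CPM in female 3, against 4.40 to 4.45 in the other females. The adipocyte score was -0.84 in female 2, against 0.25 to 0.47 in the other females.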

How the results depend on the processing

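No member was called between the sexes under any alternative run, while the number of called genes was 14 as reported, 112 with DESeq2, 7 with the replicate number as a block, 9 without male 2 and female 3 together, and 8 to 16 with 1 library left out (8 without male 3 or male 4). Same-numbered libraries deviated from their sex means with r of -0.31 to -0.09, so the numbers do not pair the samples. With 1 library left out, the log2 fold change was -0.15 to 0.21 for Pmp22, -0.08 to 0.33 for Mbp, -0.19 to 0.31 for Prx, -0.53 to 0.16 for Mag and -0.19 to 0.19 for S100b. Mag was 0.03 with the muscle covariate and 0.09 without male 2 and female 3. S100b and Sox10 passed, as 1 of 3 pairs, with DESeq2 size factors (r = 0.79), upper quartile (0.82), CPM by total count (0.81), centring by sex (0.86), the muscle score removed (0.93) and without male 2 and female 3 (0.91). That pair also passed without male 3 or without female 3, so 0 to 1 passed with 1 library left out, where r was 0.68 to 0.88. Of the 39 relations with lists, 2 passed by r with upper quartile scaling and 2 with centring by sex (S100b with gland genes, Sox10 with melanocyte genes), and 3 with the muscle score removed. Residuals from a fit are not exactly exchangeable, so those p are approximate. With 1 library left out, r of Egr2 was -0.47 to 0.34 with S100b and -0.38 to 0.21 with Sox10, and without male 2 and female 3 it was 0.23 and 0.44. With the muscle score removed, 0 members had the original 4 libraries on top, in a fit that leans heavily on female 3, the library with the lowest score. The cause of these changes was not tested. The planned median r over 21 pairs was not run. Mag, at 32 to 119 counts, is limited by depth.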

Other observations

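The 10 genes most like the mean of the 7 members, by r of log2 CPM over the 8 libraries, were Prrg1, Peli2, Vwa1, Gria3, Gkap1, Gm106, Syde1, Mgat3, Kcnt2 and Rasgef1c (r of 0.96 to 0.98). Vwa1 encodes a matrix protein of basement membranes and Gria3 a glutamate receptor subunit. None of the 10 was called between the sexes by edgeR (adjusted p = 0.999 for each). Of the Schwann and myelin lists, 3 did not pass the filter on low counts: Shh, a hedgehog ligand of repair Schwann cells, with 3 to 21 counts per library, Gfap, a filament of non-myelinating Schwann cells, with 0 to 14, and Pou3f2, a transcription factor of the lineage, with 0 to 4.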
